A study of Mus musculus with 8 samples.

Results

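The TNF receptor superfamily and its ligands were examined in CD4 T cells before and after differentiation. The members were the genes named Tnfrsf or Tnfsf with a number, together with *Cd27*, *Cd70*, *Cd40*, *Cd40lg*, *Fas*, *Fasl*, *Tnf*, *Lta*, *Ltb*, *Ltbr*, *Ngfr* and *Eda2r*. The names found 43 of the 23284 genes measured, of which 26 were receptors and 17 were ligands. RNA was sequenced from 4 groups of 2 libraries each, which were naive CD4 T cells and the effector subsets Th1, Th2 and Th17. All cells came from DO11.10 Tg mice, which carry a transgenic T cell receptor for an ovalbumin (OVA) peptide, and the methods give an age of 6 to 12 weeks for the mice. Naive cells were sorted from spleen as CD44low CD62Lhi CD4+ cells and were not cultured. The effector cells were grown from the same kind of sorted cell for 6 days with 0.3 µM OVA peptide and irradiated splenocytes depleted of T cells. For Th1 cells, IL-12 (100 U/ml), IL-2 (30 U/ml) and an antibody to IL-4 (1 µg/ml) were added. For Th2 cells, IL-4 (100 U/ml), IL-2 (30 U/ml) and an antibody to IFN-γ (10 µg/ml) were added. For Th17 cells, IL-23, IL-6 and IL-1β were added at 10 ng/ml each with antibodies to IL-4 and to IFN-γ at 10 µg/ml each, and neither IL-2 nor TGF-β is listed for them.

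Levels are given as FPKM, the fragments of a gene scaled to its exon length and to the mapped fragments of the library, which can be set side by side between genes. Pairs of values are replicate 1 and replicate 2 in that order. Differences are on the log2(FPKM + 1) scale, first group minus second, with the standard error of limma, a linear model fitted to the 11198 genes that averaged 1 FPKM or more over the 8 libraries. A difference was called when its two-sided Benjamini-Hochberg adjusted p-value over those genes was under 0.05. The scale understates the change of genes with low FPKM. The labels do not say that the 2 libraries of a group came from separate mice or cultures, so the p-values measure only the spread between these libraries, which may be technical. The effector cells differ from the naive cells in the peptide, the added splenocytes and the days of culture as well as in the subset, and these cannot be told apart in a comparison with naive cells. In bulk RNA, fewer cells that express a gene and less RNA per cell cannot be told apart either.

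The depth implied by the confidence intervals of the files was 14463466 to 21058286 fragments per library. The 5 T cell markers summed to an FPKM of 1094 to 2030 in every library. The sums of the Th1, Th2 and Th17 markers were each highest in both libraries of the subset they name, and the 4 naive markers in both naive libraries. The 8 B cell markers summed to 7.55 and 9.80 FPKM in naive cells and stayed between 2.81 and 14.5 in the effector libraries. The 2 markers of regulatory T cells summed to 8.21 and 15.4 FPKM in naive cells, 2.69 and 2.93 in Th1 cells, 0.572 and 0.887 in Th2 cells, and 4.31 and 7.33 in Th17 cells. None of these marker genes was at 0 in all libraries. The 5 dendritic cell markers summed to 0.728 to 3.90 FPKM over the libraries, the 3 natural killer cell markers to 0.0769 to 1.44, and the 4 neutrophil markers to 0.0425 to 7.65, with the 3 highest sums in replicate 1 of the effector subsets. *Cd8b1*, a chain of the CD8 coreceptor, was at 90.5 and 52.8 FPKM in naive cells and at 12.9 or less in the effector libraries. The other chain, *Cd8a*, was far lower, at 2.94 and 1.77 FPKM in naive cells and at 0.268 or less in the effector libraries.

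The receptors of this family are membrane proteins with cysteine-rich repeats, and the ligands are trimers that cluster them. One class of receptors, with CD30 (*Tnfrsf8*), CD137 (*Tnfrsf9*), OX40 (*Tnfrsf4*), GITR (*Tnfrsf18*) and CD27, binds TRAF adaptor proteins and is known for the costimulation of T cells. Another class, with *Fas*, *Tnfrsf1a* and *Tnfrsf10b*, has a death domain in its cytoplasmic tail and can start apoptosis. Some members lack a working signaling tail and act as decoys.

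The promoters of 6 members are shown first, because the receptors *Tnfrsf8*, *Tnfrsf9*, *Tnfrsf4* and *Tnfrsf18* all lie on chromosome 4 and rose in every subset, while the neighbors *Lta* and *Ltb* on chromosome 17 moved apart. Of the other receptors on chromosome 4, *Tnfrsf1b* rose in every subset, *Tnfrsf14* fell in every subset and *Tnfrsf25* fell in Th1 and Th2 cells. Each promoter shown is the 250 bases before an annotated transcription start, from RefSeq on GRCm38.p6, written 5′ to 3′ on the strand of the gene, and for *Tnfrsf9* both annotated starts are given. Capitals mark matches to the NF-κB motif, to the AP-1 motif (TGACTCA or TGAGTCA) and to the STAT motif TTCNNNGAA.
Tnfrsf8, chr4:145315165-145315414, minus strand: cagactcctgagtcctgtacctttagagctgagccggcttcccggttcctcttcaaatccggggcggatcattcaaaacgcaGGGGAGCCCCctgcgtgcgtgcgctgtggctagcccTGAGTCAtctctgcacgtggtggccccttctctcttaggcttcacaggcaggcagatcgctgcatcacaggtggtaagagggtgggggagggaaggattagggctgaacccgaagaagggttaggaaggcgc
Tnfrsf9, upstream start, chr4:150919905-150920154, plus strand: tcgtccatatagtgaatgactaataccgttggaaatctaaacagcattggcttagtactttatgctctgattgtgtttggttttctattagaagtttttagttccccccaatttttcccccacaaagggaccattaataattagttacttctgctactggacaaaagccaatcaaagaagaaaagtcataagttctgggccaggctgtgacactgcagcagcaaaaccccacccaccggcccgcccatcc
Tnfrsf9, downstream start, chr4:150927749-150927998, plus strand: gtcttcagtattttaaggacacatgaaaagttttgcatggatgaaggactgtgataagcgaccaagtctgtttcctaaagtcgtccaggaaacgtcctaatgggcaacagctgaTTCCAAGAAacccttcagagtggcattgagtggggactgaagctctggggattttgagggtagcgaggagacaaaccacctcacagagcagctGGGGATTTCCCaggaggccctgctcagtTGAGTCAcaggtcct
Tnfrsf4, chr4:156013445-156013694, plus strand: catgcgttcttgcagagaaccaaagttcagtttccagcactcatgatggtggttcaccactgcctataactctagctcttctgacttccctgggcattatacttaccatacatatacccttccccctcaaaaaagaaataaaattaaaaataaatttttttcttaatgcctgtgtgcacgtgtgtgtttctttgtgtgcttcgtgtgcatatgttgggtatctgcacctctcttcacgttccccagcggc
Tnfrsf18, chr4:156026072-156026321, plus strand: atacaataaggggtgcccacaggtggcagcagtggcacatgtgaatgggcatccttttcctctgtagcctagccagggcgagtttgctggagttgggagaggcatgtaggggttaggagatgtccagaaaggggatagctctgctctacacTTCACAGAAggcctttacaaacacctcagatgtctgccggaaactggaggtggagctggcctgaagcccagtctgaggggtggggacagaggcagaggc
Lta, chr17:35205352-35205601, minus strand: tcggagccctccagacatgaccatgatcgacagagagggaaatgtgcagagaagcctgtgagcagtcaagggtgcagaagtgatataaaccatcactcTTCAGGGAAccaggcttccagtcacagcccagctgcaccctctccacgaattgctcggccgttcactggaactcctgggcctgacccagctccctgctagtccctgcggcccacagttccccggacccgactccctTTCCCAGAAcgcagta
Ltb, chr17:35194257-35194506, plus strand: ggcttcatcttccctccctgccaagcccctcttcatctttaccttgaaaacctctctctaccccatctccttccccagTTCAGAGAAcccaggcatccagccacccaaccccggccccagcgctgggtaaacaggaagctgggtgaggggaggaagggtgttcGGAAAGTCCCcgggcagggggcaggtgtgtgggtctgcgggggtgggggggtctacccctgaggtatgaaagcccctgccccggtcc

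RefSeq promoters were found for 33 of the 43 members, which have 37 promoters in all, and both strands were searched over 250 bases before to 50 bases after each start. An NF-κB motif was present in 3 of the 37 promoters (8.11%), against 4.51% of all 32851 promoters of the same length. The 3 belonged to *Ltb*, *Tnfrsf8* and *Tnfrsf9*. An AP-1 motif was present in 7 of the 37 (18.9%), against 5.20% of all promoters, and 2 of the 7 were overlapping windows of *Tnfsf13b* that hold the same match. The STAT motif was present in 9 of the 37 (24.3%), against 8.30%. *Tnfrsf8* and *Tnfrsf9* were the 2 members with both an NF-κB and an AP-1 motif (5.41%), against 0.228% of all promoters. In *Tnfrsf8* the NF-κB match began 168 bases and the AP-1 match 132 bases before the start. At the downstream start of *Tnfrsf9*, a pair of overlapping NF-κB matches began 43 and 42 bases and the AP-1 match 15 bases before the start, and the upstream start held none of the motifs. The shares are descriptions, and the motifs were chosen with the expression results known.

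Most members measured above the filter differed between naive cells and every effector subset, in both directions. The filter of 1 FPKM on average was passed by 31 members (19 receptors and 12 ligands). Against naive cells, 29 of them were called in Th1 cells (67.3% of all genes were), 27 in Th2 cells (70.5% of all genes) and 28 in Th17 cells (67.3% of all genes). By direction, 17 rose and 12 fell in Th1 cells, 15 rose and 12 fell in Th2 cells, and 18 rose and 10 fell in Th17 cells. Over all 11198 genes, 33.8% were called higher and 33.5% lower in Th1 cells, 31.8% and 38.7% in Th2 cells, and 37.5% and 29.8% in Th17 cells. The share of members called higher was thus 54.8%, 48.4% and 58.1%, above these backgrounds, and the share called lower (38.7%, 38.7% and 32.3%) was near them. The median difference from naive cells over the 31 members was 1.34 in Th1 cells, 0.17 in Th2 cells and 1.13 in Th17 cells, beside -0.01, -0.11 and 0.08 over all genes tested. A gene at or near 0 in naive cells passed the filter only through the effector libraries, as *Tnfrsf11b* did, so these counts describe the members that passed and not the family. The plot of levels by library shows all 43 members.

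**Figure D1:**
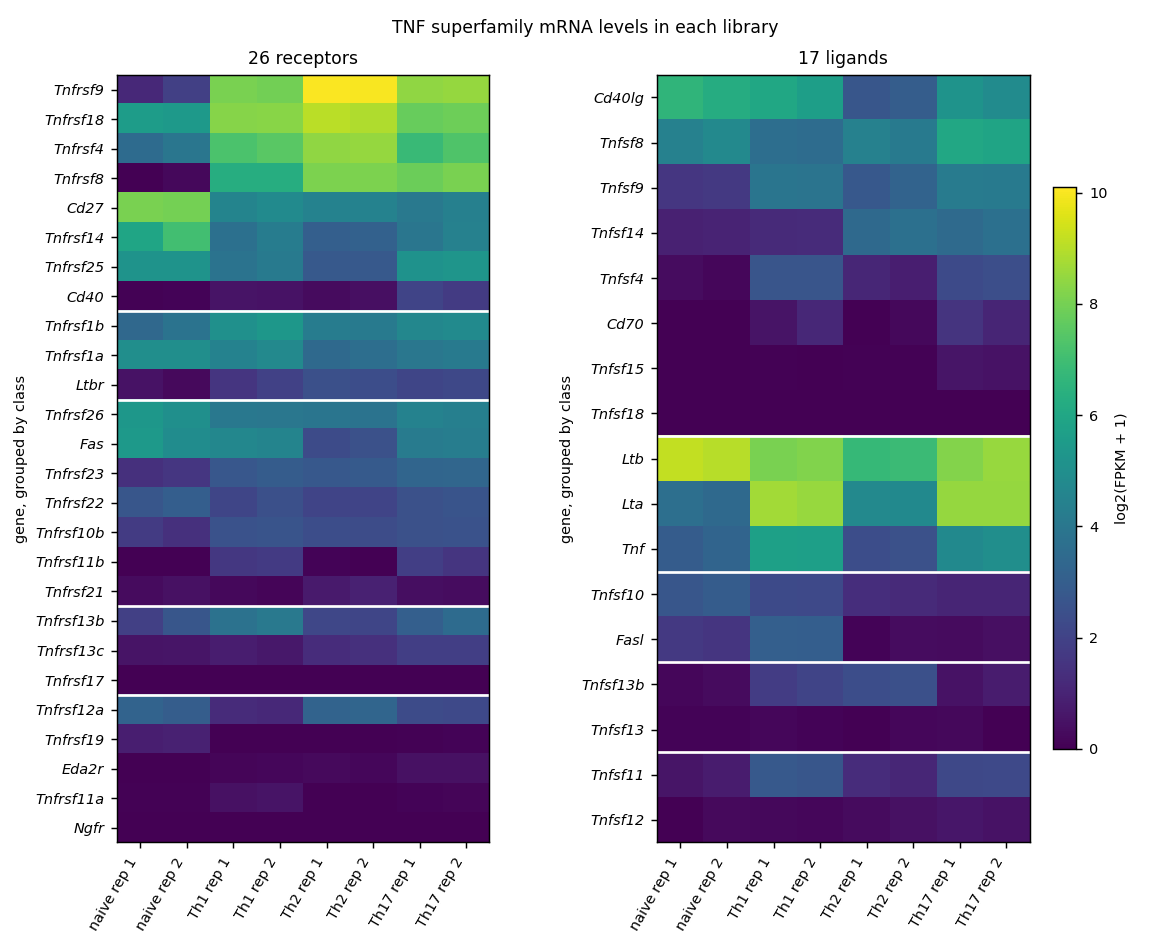
Each row is a member and each column a library, with the color giving log2(FPKM + 1) on a shared scale; white lines separate the classes used in the text. *Tnfrsf9* is brightest in the 2 Th2 libraries (1043 and 1028 FPKM) and *Ltb* in the 2 naive libraries, while rows such as *Tnfrsf17* and *Tnfsf18* are dark throughout.

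The 3 subsets were compared with the same 2 naive libraries, so their differences from naive cells are not independent of each other. In all 3 subsets 12 of the 31 members were higher than in naive cells (24.8% of all genes were), namely *Tnfrsf4*, *Tnfrsf8*, *Tnfrsf9*, *Tnfrsf18*, *Tnfrsf1b*, *Tnfrsf10b*, *Tnfrsf23*, *Ltbr*, *Lta*, *Tnfsf4*, *Tnfsf9* and *Tnfsf11*. For *Tnfsf4* and *Tnfsf11* the difference between Th2 and naive cells turned to -0.0383 and -0.194 under quantile normalization. Another 8 members were lower in all 3 subsets (23.8% of all genes), namely *Cd27*, *Cd40lg*, *Fas*, *Ltb*, *Tnfrsf14*, *Tnfrsf1a*, *Tnfrsf26* and *Tnfsf10*, and this count was 5 without naive replicate 1. *Fasl*, *Tnf* and *Tnfsf8* were higher in one subset and lower in another (3.47% of all genes). Counted without a test, both naive libraries lay below all 6 effector libraries for 16 of the 31 members (background 30.5% of all genes) and above all 6 for 9 (background 31.1%).

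**Figure D2:**
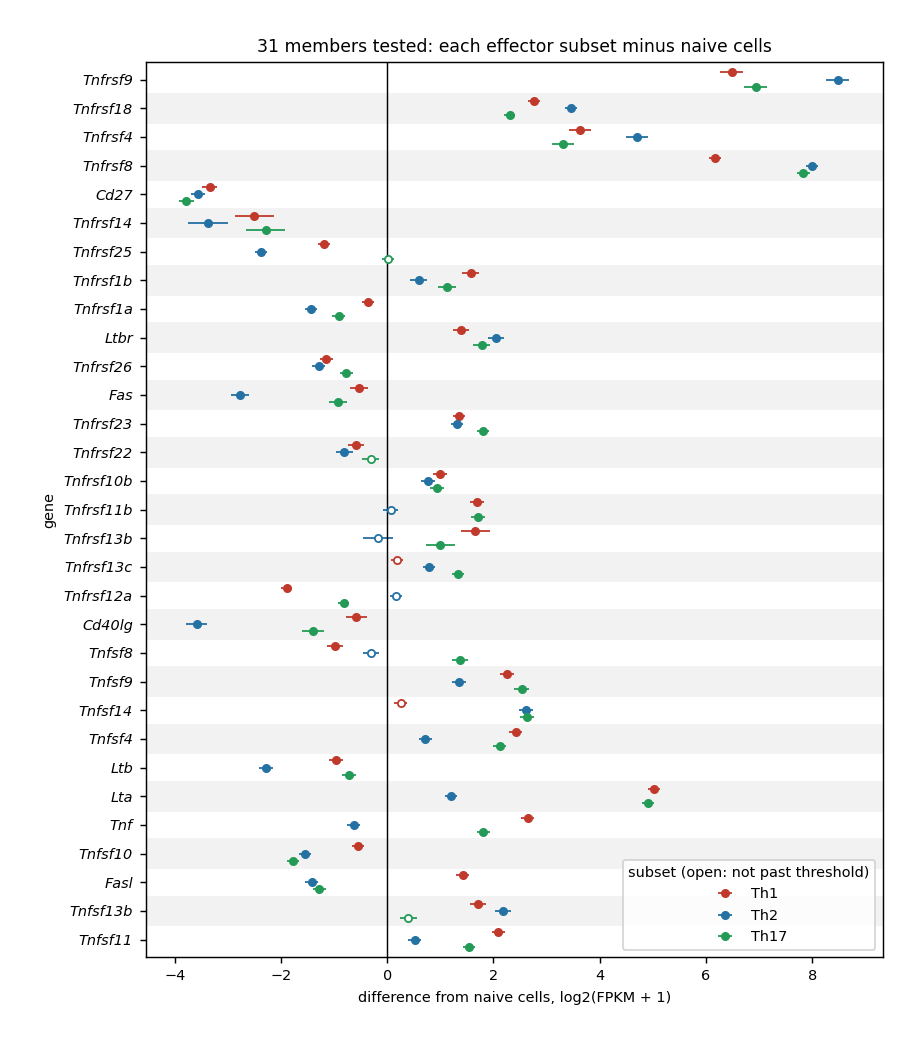
Points give the difference of each effector subset from naive cells in log2(FPKM + 1) for the 31 members tested, bars give the standard error of limma, and open points did not pass the adjusted p threshold of 0.05. *Tnfrsf9* and *Tnfrsf8* lie farthest to the right in all 3 subsets, *Cd27* and *Tnfrsf14* lie left of 0 in all 3, and *Tnf*, *Fasl* and *Tnfsf8* have points on both sides of 0.

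Among the costimulatory receptors, *Tnfrsf8*, *Tnfrsf9*, *Tnfrsf4* and *Tnfrsf18* rose in all 3 subsets and reached their highest FPKM in Th2 cells. *Tnfrsf8* (CD30, chr4:145268976-145315147 in mm10) was at 0 and 0.16 FPKM (naive), 76.5 and 76.8 (Th1), 273 and 274 (Th2) and 227 and 265 (Th17). It was thus near 0 in both naive libraries and, of the effector libraries, lowest in the 2 from Th1 cells. Its difference from naive cells was 6.17 ± 0.11 for Th1, 7.99 ± 0.11 for Th2 and 7.84 ± 0.11 for Th17 cells (adjusted p = 1.28e-07, 6.01e-08 and 1.09e-07, limma). Th1 cells were below Th2 cells, with a difference of -1.82 ± 0.11 and below Th17 cells, with a difference of -1.66 ± 0.11, and both differences were called. Between Th17 and Th2 cells the difference was -0.16 ± 0.11 (adjusted p = 0.309), and it passed the threshold with median scaling (-0.34, adjusted p = 0.041). *Tnfrsf9* (CD137, chr4:150920155-150946102), a receptor seen on activated T cells, was at 1.26 and 2.74 FPKM (naive), 271 and 249.5 (Th1), 1043 and 1028 (Th2) and 347 and 362 (Th17). Both Th2 values were above all others, and the ranges of Th1 and Th17 cells did not overlap. The differences from naive cells were 6.49 ± 0.22, 8.48 ± 0.22 and 6.93 ± 0.22 for Th1, Th2 and Th17, with adjusted p of at most 7.2e-07. Th2 cells exceeded Th1 cells by 1.99 and Th17 cells by 1.54, both called, while Th1 and Th17 cells differed by -0.45 ± 0.22 (adjusted p = 0.195; 0.023 without naive replicate 1, 0.022 without naive replicate 2).

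*Tnfrsf4* (OX40, chr4:156013695-156016589), which sustains the survival of activated T cells, was at 10.6 and 14.7 FPKM (naive), 150.1 and 183 (Th1), 341 and 362 (Th2) and 113 and 157 (Th17). The naive libraries were the 2 lowest, the Th2 libraries the 2 highest, and those of Th1 and Th17 cells overlapped. The differences from naive cells were 3.63 ± 0.21 for Th1, 4.71 ± 0.21 for Th2 and 3.31 ± 0.21 for Th17 cells, all called. *Tnfrsf18* (GITR, chr4:156026342-156028891), which regulatory T cells also carry at a high level, was at 46.6 and 43 FPKM (naive), 306 and 312 (Th1), 535 and 474 (Th2) and 217 and 233 (Th17). No group overlapped another, with the order Th2, Th1, Th17 and naive from high to low. Its differences from naive cells were 2.76 ± 0.11, 3.46 ± 0.11 and 2.30 ± 0.11 for Th1, Th2 and Th17. That between Th1 and Th17 cells, 0.46 ± 0.11 (adjusted p = 0.0224), lost its call without either library of Th1 or of Th17 cells, with values of 0.406 to 0.51. Part of the *Tnfrsf18* exons, 18.7% of their 50-base words, also occurs in *Gm16008*, annotated on the opposite strand, so its reads are uncertain to that extent. The summed regulatory T cell markers given above were lowest in Th2 cells, where *Tnfrsf4* and *Tnfrsf18* were highest, and highest in naive cells, where both were lowest. Their part in these levels was not tested.

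Other costimulatory receptors fell. *Cd27* (chr6:125232622-125237027), a receptor known for its high level on naive T cells, was at 270.2 and 252 FPKM (naive), 22.5 and 27.2 (Th1), 21 and 21.3 (Th2) and 16.1 and 20.3 (Th17). Both naive values lay far above the 6 effector values, and the 6 effector values lay between 16.1 and 27.2. Against naive cells, the differences were -3.35 ± 0.14 for Th1, -3.56 ± 0.14 for Th2 and -3.78 ± 0.14 for Th17 cells, with adjusted p of at most 1.79e-06 (limma). Among the subsets no difference was called. That between Th1 and Th17 cells, 0.43 ± 0.14 (adjusted p = 0.0621), passed the threshold with the replicate number as a block (adjusted p = 0.036), with median scaling (0.52, 0.023), under quantile normalization (0.481, 0.023) and without Th17 replicate 2 (0.594, 0.049). That between Th17 and Th2 cells, -0.22 ± 0.14 (adjusted p = 0.244), passed it with median scaling (-0.393, 0.044) and under quantile normalization (-0.38, 0.037). *Tnfrsf14* (HVEM, chr4:154922210-154928077), the receptor of LIGHT, was at 59.6 and 133 FPKM (naive), 12.2 and 18.1 (Th1), 7.42 and 7.9 (Th2) and 14.6 and 20.7 (Th17). Replicate 2 was above replicate 1 in every group, most of all in naive cells. There the regulatory T cell marker *Foxp3* was also higher in replicate 2 (6.68 and 12.8 FPKM). So was the naive marker *Lef1* (86.6 and 143 FPKM), which was higher in replicate 2 of every group, while the naive markers *Ccr7* and *Klf2* were lower in naive replicate 2. The part of regulatory T cells, or of other differences between the replicates, was not tested. *Tnfrsf14* was lower in all 3 subsets, with differences of -2.50 ± 0.37, -3.38 ± 0.37 and -2.29 ± 0.37 for Th1, Th2 and Th17. Its differences of Th1 and of Th17 from Th2 cells were 0.88 and 1.09, with adjusted p of 0.0999 and 0.0527 without the block and 0.02 and 0.0097 with it; both were also called without either naive library.

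*Tnfrsf25* (DR3, chr4:152116343-152120111), a receptor that combines a death domain with costimulation of T cells, separated Th17 cells from the other subsets. It was at 35.6 and 35.7 FPKM (naive), 13.6 and 16.6 (Th1), 6.13 and 6.05 (Th2) and 34.5 and 37.3 (Th17). The Th17 libraries lay to either side of the naive ones, and Th2 libraries were lowest. Its difference from naive cells was -1.20 ± 0.11 in Th1 and -2.37 ± 0.11 in Th2 cells, both called, and 0.01 ± 0.11 in Th17 cells (adjusted p = 0.957). Th17 cells were higher than Th2 cells by 2.38 ± 0.11 and Th1 cells lower than Th17 cells, with a difference of -1.20 ± 0.11, both called. *Cd40* (chr2:165055636-165071654), the receptor by which B cells and antigen-presenting cells receive T cell help, was below the filter and was not tested. It was listed at 0.0553 and 0.063 FPKM (naive), 0.459 and 0.409 (Th1), 0.235 and 0.315 (Th2) and 3.18 and 2.42 (Th17), so the 2 Th17 libraries were the highest. In Th17 cells the 8 B cell markers summed to between 13.1 and 14.5 FPKM and the 5 dendritic cell markers to between 3.88 and 3.90. The dendritic cell sums were above those of the other groups, while the B cell sums overlapped those of Th2 cells (8.41 to 13.2 FPKM). Single markers had their highest mean elsewhere, such as *Ms4a1*, *Fcer2a* and *Itgax* in Th2 cells and *Xcr1* in Th1 cells. The part of B cells and dendritic cells in the level of *Cd40* was not tested.

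Among the ligands of the costimulatory receptors, *Tnfsf9* and *Tnfsf4* rose in all 3 subsets, *Cd40lg* fell, and *Tnfsf8* and *Tnfsf14* differed by subset. *Tnfsf8* (CD153, the ligand of CD30, chr4:63832824-63861284) was at 20.6 and 26.1 FPKM (naive), 11.7 and 10.9 (Th1), 20.7 and 16.8 (Th2) and 64.8 and 58.5 (Th17). The Th17 libraries were highest, those of Th1 cells lowest, and those of naive and Th2 cells overlapped. Its difference from naive cells was -0.98 ± 0.15 in Th1 cells (adjusted p = 0.00094), -0.30 ± 0.15 in Th2 cells (0.108; 0.041 without naive replicate 1) and 1.37 ± 0.15 in Th17 cells (0.000169). *Tnfsf9* (the ligand of CD137, chr17:57105385-57107757) was at 2.04 and 2.22 FPKM (naive), 14.2 and 13.7 (Th1), 5.94 and 8.22 (Th2) and 17.4 and 16.9 (Th17). All effector libraries were above the naive ones and those of Th2 cells were the lowest of them, with differences of 2.25 ± 0.14 for Th1, 1.35 ± 0.14 for Th2 and 2.53 ± 0.14 for Th17 cells. Of its exon words, 11.5% also occur in the antisense gene *Gm11110*. *Tnfsf4* (the ligand of OX40, chr1:161395438-161418206) was at 0.249 and 0.125 FPKM (naive), 5.25 and 5.4 (Th1), 1.1 and 0.803 (Th2) and 3.86 and 4.42 (Th17). The naive libraries were lowest and the Th2 libraries next, with differences from naive cells of 2.42 ± 0.12 for Th1, 0.71 ± 0.12 for Th2 (-0.0383 under quantile normalization) and 2.12 ± 0.12 for Th17 cells.

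*Tnfsf14* (LIGHT, chr17:57189492-57194186), a ligand of HVEM and of the lymphotoxin β receptor, was at 0.925 and 1.01 FPKM (naive), 1.32 and 1.37 (Th1), 9.97 and 12.2 (Th2) and 10.3 and 12.1 (Th17). Th2 and Th17 libraries overlapped far above the naive and Th1 libraries. From naive cells it differed by 0.25 ± 0.12 in Th1 cells (adjusted p = 0.111), 2.61 ± 0.12 in Th2 cells (2.75e-06) and 2.63 ± 0.12 in Th17 cells (2.86e-06). The Th1 difference was 0.436 and called with a pseudocount of 0.1, and -0.387 and called under quantile normalization, so its direction depends on the scaling. *Cd40lg* (chrX:57212143-57224042), the ligand by which helper T cells act on B cells, was at 96.8 and 75 FPKM (naive), 64.6 and 49.7 (Th1), 5.48 and 6.95 (Th2) and 35.8 and 28.1 (Th17). The Th2 libraries were lowest and the Th17 libraries next, with differences from naive cells of -3.59 ± 0.20 and -1.40 ± 0.20. The difference in Th1 cells, -0.58 ± 0.20 (adjusted p = 0.0375), lost its call without naive replicate 1 (-0.398, adjusted p = 0.18), without Th1 replicate 2 (-0.395, 0.2), without Th2 replicate 1 or 2 (-0.58, 0.0502 and 0.05), with median scaling (-0.537, 0.064), with no filter (0.067) and with only the 2 groups in the fit (0.061). Of the ligands below the filter, *Cd70*, the ligand of CD27, was listed at 0 and 0 FPKM (naive), 0.459 and 1.18 (Th1), 0 and 0.156 (Th2) and 1.85 and 1.04 (Th17), and *Tnfsf15*, the ligand of DR3, at 0.0233 and 0.0078 FPKM (naive), 0.0347 and 0.00608 (Th1), 0.0524 and 0.0531 (Th2) and 0.507 and 0.413 (Th17). *Tnfsf18*, the ligand of GITR, was listed at 0 in all 8 libraries.

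TNF and the lymphotoxins, which act through *Tnfrsf1a*, *Tnfrsf1b* and *Ltbr*, set Th1 and Th17 cells apart from Th2 cells. *Lta* (chr17:35203165-35205351), a secreted ligand that also joins lymphotoxin β at the membrane, was at 12.1 and 10.0 FPKM (naive), 412 and 372 (Th1), 26.3 and 26.6 (Th2) and 365 and 358 (Th17). By group mean it was the most abundant member in Th1 and Th17 cells, though in Th17 replicate 2 it was below *Ltb* and *Tnfrsf9*. Its groups did not overlap, and the Th2 libraries were closer to the naive ones. Relative to naive cells, the values differed by 5.03 ± 0.11, 1.19 ± 0.11 and 4.92 ± 0.11 for Th1, Th2 and Th17, and Th1 cells exceeded Th2 cells by 3.84 ± 0.11 (adjusted p = 2.62e-06). *Tnf* (chr17:35199391-35201996), the ligand that gave the family its name, was at 6.58 and 8.44 FPKM (naive), 52.1 and 51.5 (Th1), 4.24 and 4.67 (Th2) and 26.8 and 30.6 (Th17). No group overlapped another, and the Th2 libraries lay below the naive ones. Its differences from naive cells were 2.64 ± 0.13 for Th1, -0.63 ± 0.13 for Th2 and 1.81 ± 0.13 for Th17 cells, all called. *Ltb* (chr17:35194507-35196305), the membrane-bound lymphotoxin, was the most abundant member in naive cells and was at 569 and 522 FPKM (naive), 268 and 291 (Th1), 107 and 116 (Th2) and 299 and 367 (Th17). It was lower in each subset, with differences of -0.96 ± 0.13, -2.28 ± 0.13 and -0.72 ± 0.13 for Th1, Th2 and Th17, and Th2 cells were lowest.

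Of their receptors, *Tnfrsf1a* (chr6:125349723-125362483), the death domain receptor of TNF, fell and *Tnfrsf1b* (chr4:145212368-145246870), the TRAF-binding one, rose. *Tnfrsf1a* was at 30.6 and 30.8 FPKM (naive), 21.5 and 26 (Th1), 10.0 and 11.4 (Th2) and 15.2 and 16.4 (Th17). All effector libraries were below the naive ones, with differences of -0.36 ± 0.12 for Th1, -1.44 ± 0.12 for Th2 and -0.92 ± 0.12 for Th17 cells. The Th1 difference (adjusted p = 0.0293) lost its call without naive replicate 1 (-0.368, adjusted p = 0.084), naive replicate 2 (-0.357, 0.093) or Th1 replicate 1 (-0.229, 0.17), and with only the 2 groups in the fit (0.062). *Tnfrsf1b* was at 9.61 and 13.3 FPKM (naive), 32.3 and 39.2 (Th1), 18.1 and 17 (Th2) and 24.5 and 27.4 (Th17), so all effector libraries were above the naive ones and those of Th1 cells were highest. Against naive cells, the differences were 1.57 ± 0.16, 0.59 ± 0.16 and 1.13 ± 0.16 for Th1, Th2 and Th17, and that of Th2 cells (adjusted p = 0.0152) lost its call without naive replicate 1 (0.374, 0.074) or Th2 replicate 1 (0.545, 0.076). Th1 and Th17 cells differed by 0.45 ± 0.16 (adjusted p = 0.0975 without and 0.042 with the replicate block). *Ltbr* (chr6:125306571-125313870), the lymphotoxin β receptor of stromal and myeloid cells, was at 0.393 and 0.209 FPKM (naive), 1.96 and 2.9 (Th1), 4.54 and 4.17 (Th2) and 3.32 and 3.58 (Th17). It was low throughout but above the naive libraries in all effector libraries, with differences of 1.39 ± 0.15 for Th1, 2.04 ± 0.15 for Th2 and 1.78 ± 0.15 for Th17 cells. The 6 myeloid markers summed to 12.6 and 13.1 FPKM (naive), 7.95 and 8.75 (Th1), 20.8 and 27.8 (Th2), and 17 and 17.2 (Th17), and their part in *Ltbr* was not tested.

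Of the death receptor *Fas* and its ligand *Fasl*, known for the deletion of activated T cells, *Fas* was lowest in Th2 cells and *Fasl* highest in Th1 cells. *Fas* (chr19:34290659-34327770) was at 41.7 and 29.1 FPKM (naive), 24.6 and 22.8 (Th1), 3.91 and 4.67 (Th2) and 17.3 and 18.4 (Th17). Every effector library was below the naive ones and both Th2 libraries were far below the other groups. From naive cells it differed by -0.54 ± 0.17 for Th1 (adjusted p = 0.0258), -2.77 ± 0.17 for Th2 (9.42e-06) and -0.93 ± 0.17 for Th17 cells (0.00238). The Th1 call was lost without naive replicate 1 (-0.288, adjusted p = 0.1), Th1 replicate 1 (-0.591, 0.067) or Th1 replicate 2 (-0.489, 0.11), and with only the 2 groups in the fit (0.072). *Fasl* (chr1:161780692-161788495) was at 2.19 and 1.98 FPKM (naive), 7.39 and 7.12 (Th1), 0.0583 and 0.256 (Th2) and 0.221 and 0.32 (Th17). Th1 libraries were above and Th2 and Th17 libraries below the naive ones, with differences of 1.42 ± 0.12, -1.42 ± 0.12 and -1.28 ± 0.12, all called. *Tnfsf10* (TRAIL, chr3:27317077-27339665) was at 5.47 and 6.57 FPKM (naive), 3.87 and 3.69 (Th1), 1.48 and 1.32 (Th2) and 1.04 and 1.04 (Th17), with differences from naive cells of -0.55 ± 0.11, -1.54 ± 0.11 and -1.78 ± 0.11 for Th1, Th2 and Th17.

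The TRAIL receptor *Tnfrsf10b* (chr14:69767472-69784411) moved against its ligand, from 2.42 and 1.65 FPKM in naive cells to 4.05 to 5.17 in the effector libraries. Its differences from naive cells were 0.99 ± 0.13, 0.76 ± 0.13 and 0.94 ± 0.13, all called, and no difference among the subsets was called. Its relatives *Tnfrsf22* and *Tnfrsf23*, decoy receptors for TRAIL, and *Tnfrsf26* lie near each other on chromosome 7. *Tnfrsf23* (chr7:143665807-143685872) was at 1.66 and 2.05 FPKM (naive), 5.74 and 6.75 (Th1), 5.89 and 6.21 (Th2) and 8.76 and 9.18 (Th17), and *Tnfrsf26* (chr7:143607685-143627845) was at 39.9 and 31.5 FPKM (naive), 15.7 and 15.3 (Th1), 14.2 and 13.6 (Th2) and 21.1 and 19.6 (Th17). All effector libraries were thus above the naive ones for *Tnfrsf23* and below them for *Tnfrsf26*, with differences of 1.34, 1.31 and 1.81 and of -1.15, -1.29 and -0.77 for Th1, Th2 and Th17. *Tnfrsf22* was between 3.17 and 7.13 FPKM in all libraries and was lower than in naive cells in Th1 (-0.59 ± 0.16) and Th2 cells (-0.81 ± 0.16). Its Th1 call was lost without naive replicate 2 (-0.433, adjusted p = 0.077) or Th1 replicate 1 (-0.395, 0.078), and with only the 2 groups in the fit (0.058). Of the 50-base words of *Tnfrsf22*, 17.3% also occur in *Tnfrsf23*, and 18.0% of those of *Tnfrsf23* occur in *Tnfrsf22*, so the split of reads between these 2 genes is uncertain. For *Tnfrsf26*, Th1 and Th17 cells differed by -0.38 ± 0.12 (adjusted p = 0.0652 without and 0.026 with the replicate block, and 0.029 without naive replicate 1 or naive replicate 2).

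Osteoprotegerin (*Tnfrsf11b*, chr15:54250619-54278484), a soluble decoy for RANKL and TRAIL, was listed at 0 in both naive libraries and at 2.15 and 2.3 FPKM (Th1), 0.0751 and 0.0127 (Th2) and 2.64 and 1.95 (Th17). Its difference from naive cells was 1.69 ± 0.13 in Th1 and 1.71 ± 0.13 in Th17 cells, both called, and 0.06 ± 0.13 in Th2 cells (adjusted p = 0.704). RANKL (*Tnfsf11*, chr14:78277446-78308043), the ligand that drives osteoclasts, was at 0.473 and 0.713 FPKM (naive), 6 and 5.52 (Th1), 1.4 and 1.14 (Th2) and 3.54 and 3.69 (Th17). All effector libraries were above the naive ones, with differences of 2.09 ± 0.12 for Th1, 0.51 ± 0.12 for Th2 (-0.194 under quantile normalization) and 1.54 ± 0.12 for Th17 cells. Its receptor RANK (*Tnfrsf11a*) was at most 0.440 FPKM in any library. *Tnfrsf12a* (the TWEAK receptor, chr17:23675445-23677449) was at 8.19 and 6.94 FPKM (naive), 1.35 and 1.26 (Th1), 8.23 and 8.95 (Th2) and 3.97 and 3.72 (Th17). The naive and Th2 groups were close to each other, Th17 cells were lower and Th1 cells lowest, with differences from naive cells of -1.89 ± 0.11 for Th1, 0.17 ± 0.11 for Th2 (adjusted p = 0.197) and -0.82 ± 0.11 for Th17 cells.

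The receptors and the ligand of the BAFF system, known for the survival of B cells, had separate patterns. *Tnfrsf13b* (TACI, chr11:61140835-61147642) was at 2.72 and 5.54 FPKM (naive), 13.2 and 16.1 (Th1), 3.42 and 3.34 (Th2) and 7.34 and 10.7 (Th17). Th1 libraries were highest and naive and Th2 libraries overlapped, with differences from naive cells of 1.66 ± 0.28 for Th1, -0.17 ± 0.28 for Th2 (adjusted p = 0.606) and 1.00 ± 0.28 for Th17 cells (0.0157). The Th17 call was lost without naive replicate 1 (0.594, adjusted p = 0.063) or Th17 replicate 2 (0.757, 0.1) and with only the 2 groups in the fit (0.057). Th1 and Th17 cells differed by 0.66 ± 0.28 (adjusted p = 0.14 without and 0.044 with the block). *Tnfrsf13c* (the BAFF receptor, chr15:82221744-82224336) was at 0.436 and 0.49 FPKM (naive), 0.745 and 0.583 (Th1), 1.42 and 1.62 (Th2) and 2.68 and 2.68 (Th17). Th17 libraries were highest, and the differences from naive cells were 0.18 ± 0.11 for Th1 (adjusted p = 0.173), 0.78 ± 0.11 for Th2 and 1.33 ± 0.11 for Th17 cells. Under quantile normalization the Th1 difference turned to -0.565 (adjusted p = 0.0045) and that of Th2 cells fell to 0.0704 (0.61). *Tnfsf13b* (BAFF, chr8:10006633-10035999) was at 0.117 and 0.235 FPKM (naive), 2.48 and 3.25 (Th1), 4.16 and 4.51 (Th2) and 0.394 and 0.721 (Th17). It was higher than in naive cells in Th1 (1.71 ± 0.15) and Th2 cells (2.18 ± 0.15). In Th17 cells the difference was 0.40 ± 0.15 (adjusted p = 0.0543, 0.015 with the replicate block, 0.047 without either Th1 library and 0.029 without Th17 replicate 1), and it was -0.527 under quantile normalization. The 8 B cell markers summed to 7.55 to 9.80 FPKM in naive cells and 2.81 to 3.56 in Th1 cells, the lowest. Their sums in Th2 cells (8.41 to 13.2) and Th17 cells (13.1 to 14.5) overlapped. *Tnfrsf13c* was highest in Th17 cells and lowest in naive cells. *Tnfrsf13b* was highest in Th1 cells and was higher in Th17 cells than in naive or Th2 cells. The part of B cells in these levels was not tested.

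Ligands and receptors were then set side by side, as 27 known pairs among the members. In 18 pairs both genes passed the filter. Both sides were higher than in naive cells in 7 pairs for Th1, 6 for Th2 and 8 for Th17, and the sides moved in opposite directions in 8, 6 and 7 pairs. Both sides were lower in 0, 2 and 1 pairs, and in the remaining 3, 4 and 2 pairs at least one side was not called. Of all single genes, 33.8%, 31.8% and 37.5% were called higher and 33.5%, 38.7% and 29.8% lower in Th1, Th2 and Th17 cells. No share was computed for pairs of other genes, so the pair counts are descriptions. The pairs share genes, since *Lta*, *Tnf* and *Ltbr* each enter several. *Lta* and *Ltbr* count as both higher in all 3 subsets, while *Ltb*, whose product *Lta* joins at the membrane, fell. Both *Tnfsf9* and *Tnfrsf9* and both *Tnfsf4* and *Tnfrsf4* were higher in all 3 subsets, with the ligand differing least from naive cells and the receptor most in Th2 cells. *Tnfsf8* and *Tnfrsf8* moved apart in Th1 cells (-0.98 and 6.17) and rose together in Th17 cells (1.37 and 7.84). *Fasl* and *Fas* moved apart in Th1 cells (1.42 and -0.54) and fell together in Th2 (-1.42 and -2.77) and Th17 cells (-1.28 and -0.93). *Ltb* fell and *Ltbr* rose in all 3 subsets, and *Tnfsf10* fell while *Tnfrsf10b* rose. As a level, log2(receptor FPKM + 1) minus log2(ligand FPKM + 1) was -4.49 for CD30 in naive cells, against 2.66 (Th1), 3.80 (Th2) and 1.98 (Th17), so the ligand was the more abundant side before differentiation and the receptor after it. For CD27 the same quantity was 8.03 in naive cells and 3.85, 4.37 and 2.98 in the subsets. Its ligand *Cd70* was below the filter and listed at 0 in both naive libraries, so the naive value is the level of *Cd27* alone. For HVEM and LIGHT it was 5.52 (naive), 2.76 (Th1), -0.47 (Th2) and 0.59 (Th17).

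**Figure D3:**
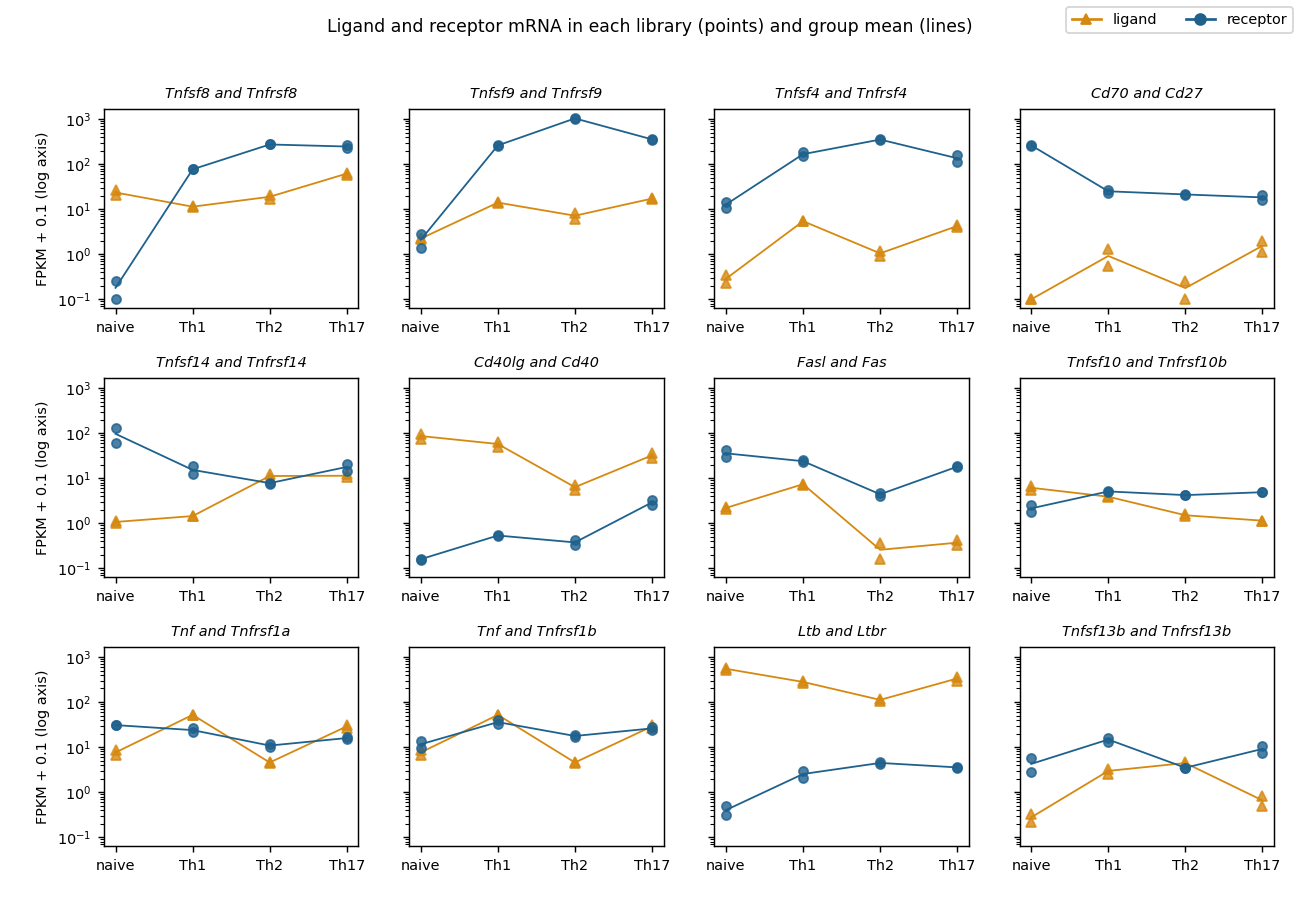
FPKM + 0.1 on a log axis for 12 ligand and receptor pairs in the 4 groups, with a point for each library (triangles for ligands, circles for receptors) and lines through the group means. The lines of *Tnfsf8* and *Tnfrsf8* cross between naive and Th1 cells. Those of *Tnfsf14* and *Tnfrsf14* cross between Th1 and Th2 cells and again between Th2 and Th17 cells, with the ligand above in Th2 cells. *Cd40lg* stays above *Cd40* and *Ltb* above *Ltbr* in every library.

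Many members lie near each other in the mm10 genome. The gaps are those between members, and genes outside the family that may lie in them were not looked at. On chromosome 17, *Ltb* and *Tnf* are 3.08 kb apart and *Tnf* and *Lta* 1.17 kb. These members differed in direction, since *Lta* rose and *Ltb* fell in all 3 subsets. *Tnf* rose in Th1 and Th17 cells only, with a called decrease in Th2 cells. A second run on the same chromosome holds *Tnfsf9*, *Cd70* and *Tnfsf14* at gaps of 38.2 and 39.7 kb, and in Th1 cells *Tnfsf9* rose by 2.25 while *Tnfsf14* was at 0.25. On chromosome 4, *Tnfrsf1b* and *Tnfrsf8* are 22.1 kb apart and *Tnfrsf4* and *Tnfrsf18* 9.75 kb apart, and all 4 rose in all 3 subsets. The level of *Tnfrsf1b* was highest in Th1 cells and those of the other 3 in Th2 cells. Between *Tnfrsf9* and *Tnfrsf4* on this chromosome lie *Tnfrsf25*, which fell in Th1 and Th2 cells, and *Tnfrsf14*, which fell in every subset. On chromosome 6, *Ltbr* lies between the members *Cd27* (69.5 kb away) and *Tnfrsf1a* (35.9 kb away). *Ltbr* was higher and both *Cd27* and *Tnfrsf1a* were lower in every subset. On chromosome 7, *Tnfrsf26*, *Tnfrsf22* and *Tnfrsf23* follow each other at 8.88 and 16.2 kb, with the directions given above.

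**Figure D4:**
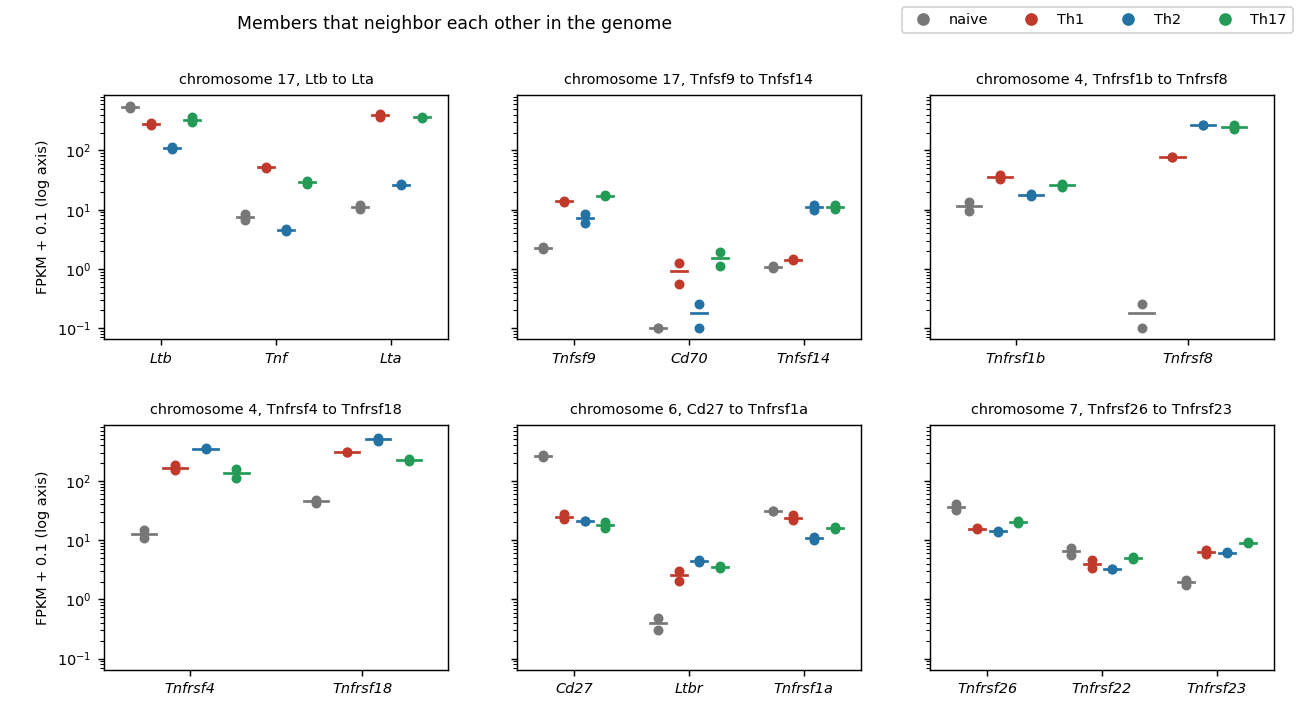
FPKM + 0.1 on a log axis for members that lie near each other in the genome, one panel per chromosome run. Points are libraries and bars are group means. In the chromosome 17 panel *Ltb* has its highest points in naive cells and *Lta* and *Tnf* in Th1 cells, and in the chromosome 4 panels *Tnfrsf8*, *Tnfrsf4* and *Tnfrsf18* have theirs in Th2 cells.

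Between the effector subsets, the ligands were more often higher in Th1 and Th17 cells than in Th2 cells, and the CD30, CD137, OX40 and GITR receptors had their highest mean in Th2 cells. Of the 31 members, 25 were called between Th1 and Th2 cells (44.3% of all genes were), 23 between Th17 and Th2 cells (43.6%) and 15 between Th1 and Th17 cells (25.1%). Between at least 1 pair of subsets, 28 of the 31 were called (59.9% of all genes). Of the 63 called differences, 48 stayed called under all the alternatives tried, and 13 of the other 30 differences between subsets were called under at least 1 of them. Th1 cells were higher than Th2 cells for 15 and lower for 10, where 27.4% and 16.9% of all genes were called. Th17 cells were higher than Th2 cells for 18 and lower for 5 (31.7% and 12% of all genes), and the lower count was 8 with median scaling and with quantile normalization. Th1 cells were higher than Th17 cells for 8 and lower for 7 (9.17% and 16% of all genes). The count of 8 became 5 without any one of the 2 Th1 and 2 Th17 libraries. Of the 12 ligands tested, 9 were higher in Th1 than in Th2 cells and 8 higher in Th17 than in Th2 cells. Those lower in Th1 than in Th2 cells were *Tnfsf8*, *Tnfsf13b* and *Tnfsf14*. The *Tnfsf8* difference, -0.68, lost its call without Th1 replicate 2 (-0.636, adjusted p = 0.061) or Th2 replicate 1 (-0.537, 0.053). The *Tnfsf13b* difference was -0.47 (adjusted p = 0.0445) and lost its call without naive replicate 1, naive replicate 2, Th1 replicate 1, Th2 replicate 1 or Th2 replicate 2, at values of -0.519 to -0.328, and with a pseudocount of 0.1 (adjusted p = 0.19), with no filter (0.062) and with only the 2 groups in the fit (0.052). Of the 19 receptors, 7 were lower in Th1 than in Th2 cells, namely *Tnfrsf4*, *Tnfrsf8*, *Tnfrsf9*, *Tnfrsf18*, *Ltbr*, *Tnfrsf12a* and *Tnfrsf13c*, and 6 were higher. Between Th17 and Th2 cells, 10 receptors were higher in Th17 cells and 4 were lower. The receptors as a class were thus not mostly higher in Th2 cells. By group mean, 6 receptors and 1 ligand were highest in Th2 cells, and 3 receptors and 5 ligands in Th1 cells. Another 4 receptors and 3 ligands were highest in Th17 cells, and 6 receptors and 3 ligands in naive cells. These counts used no test, and the share over all genes was not computed. They include near ties, such as *Tnfrsf25* (35.9 in Th17 and 35.6 in naive cells) and *Tnfsf14* (11.2 in Th17 and 11.1 in Th2 cells).

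A list of 32 related genes found in the data was called lower than in naive cells more often than higher. It held adaptors, kinases, ubiquitin enzymes, inhibitors and shedding proteases, and the superfamily genes *Relt*, *Edar* and *Eda*, which the name rule leaves out. Of the 30 tested, 8 rose and 16 fell from naive to Th1 cells, where 33.8% and 33.5% of all genes did. In Th2 cells 5 rose and 16 fell (31.8% and 38.7% of all genes). In Th17 cells 7 rose and 13 fell (37.5% and 29.8% of all genes). With the replicate block *Rbck1* in Th1 and Th17 cells and *Tank* in Th2 cells were also called lower and *Tnip1* in Th17 cells higher. The median difference of the list was -0.36, -0.39 and -0.17, and -0.01, -0.11 and 0.08 over all genes. *Traf5*, an adaptor of several costimulatory receptors, was at 28.7 and 38.1 FPKM (naive), 2.8 and 3.71 (Th1), 3.29 and 2.26 (Th2) and 1.49 and 1.8 (Th17). All effector libraries were far below the naive ones, with differences of -3.01, -3.19 and -3.69. *Tnip2*, an inhibitor of NF-κB signaling, was at 5.85 and 6.28 FPKM (naive), 20.7 and 19.8 (Th1), 39.9 and 40.4 (Th2) and 44 and 42 (Th17), and rose by 1.59, 2.54 and 2.64. *Ripk3*, a kinase of necroptosis, rose by 1.43, 1.63 and 1.18 for Th1, Th2 and Th17. *Map3k14*, the kinase NIK of the noncanonical NF-κB pathway, differed from naive cells by -1.56, -1.21 and -0.98. *Cflar*, the inhibitor of caspase-8 known as c-FLIP, differed by -0.99, -1.04 and -1.48, and *Relt*, a receptor outside the name rule, by -1.08, -1.88 and -1.43. All differences named for these 6 genes were called.

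The remaining members were below the filter and were not tested. *Tnfrsf17* (BCMA, a receptor of plasma cells) was listed at 0 in all 8 libraries, and *Ngfr* (the low-affinity neurotrophin receptor) was at 0 in 7 of them and at 0.0107 FPKM in Th1 replicate 2. *Tnfrsf19* was at 0.797 and 0.916 FPKM in naive cells and at 0.0654 or less in the effector libraries. *Eda2r* was listed at 0 in naive cells and at 0.106 and 0.136 (Th1), 0.181 and 0.124 (Th2) and 0.357 and 0.38 (Th17). *Tnfrsf21* (DR6) was at 0.217 and 0.372 FPKM (naive), 0.161 and 0.09 (Th1), 0.669 and 0.922 (Th2) and 0.308 and 0.254 (Th17), with the Th2 libraries highest. *Tnfsf12* (TWEAK) and *Tnfsf13* (APRIL) were at most 0.528 and 0.176 FPKM, and 46.8% and 57.3% of their exon words are shared with the read-through transcript *Tnfsfm13*, so their levels are uncertain. Together with *Cd40*, *Cd70*, *Tnfsf15*, *Tnfsf18* and *Tnfrsf11a*, these are the 12 members under the filter.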

How the data were processed

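RNA of naive, Th1, Th2 and Th17 cells was sequenced by the authors in 8 libraries as 50-base reads, aligned to mm10 with Bowtie 0.12.8 and TopHat 1.3.2, and the deposited FPKM per gene were computed by the authors with Cufflinks 2.0.2. The annotation is not given in the sources used here. The labels name a stranded library kit and the methods one that does not mark strand, so reads of overlapping antisense genes may not be told apart. Depth was read from the deposited confidence intervals, taken as counting error only.

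Rows of 1 symbol were summed (each member had 1 row). limma 3.58.1 in R 4.3.3 (lmFit, eBayes with trend) was fitted to log2(FPKM + 1) of 11198 genes with mean FPKM of at least 1, with all 8 libraries sharing 1 spread. The 6 comparisons were two-sided, with Benjamini-Hochberg adjustment and a threshold of 0.05. The procedure was tested on simulated data, in which the libraries were independent and few genes changed. That test does not cover paired libraries or changes in most genes. Deviations of libraries with the same replicate number correlated at 0.138 to 0.294 over the 6 pairs of groups, so the replicate numbers may pair the libraries. The main fit had no block, and its differences, p-values and counts do not take such pairing into account. A fit blocked on the replicate numbers was an alternative. Gene positions are 1-based mm10 coordinates from the files. Tables used Python 3.11.15, pandas 2.3.3 and numpy 2.4.6.

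The members, their classes and pairs, the marker and signaling lists, the tests and the motifs were chosen with earlier results of these data known. Members called with a difference of at least 1, and pair partners, are given with every library. Signaling genes are named when called with such a difference in at least 2 of the 3 comparisons with naive cells. Other settings were another pseudocount, other filters, median and quantile scaling, fits of 2 groups, no trend, a replicate block, other handling of rows, and each library left out.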

Additional observations from a re-analysis of the deposited data

Results flagged for a closer look

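Differences between the effector subsets were tested in the same limma fit, and 28 of the 31 members tested differed between at least 1 pair of subsets at an adjusted p under 0.05, where 59.9% of all genes did. *Cd27*, *Tnfrsf10b* and *Tnfrsf14* were not called, and of these *Cd27* and *Tnfrsf14* were called under some alternatives, given above. The largest called difference of each member is given here on the log2(FPKM + 1) scale, and the 3 comparisons share libraries.

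Between Th1 and Th2 cells, the ligands *Lta* (3.84), *Tnf* (3.28), *Cd40lg* (3.01), *Fasl* (2.84), *Tnfsf4* (1.70) and *Tnfsf11* (1.57) were higher in Th1 cells, as were the receptors *Fas* (2.23), *Tnfrsf13b* (1.83), *Tnfrsf1a* (1.08) and *Tnfrsf1b* (0.98). The receptors *Tnfrsf12a* (-2.06), *Tnfrsf9* (-1.99), *Tnfrsf8* (-1.82) and *Ltbr* (-0.65) were lower in Th1 than in Th2 cells. The *Ltbr* difference lost its call without Th1 replicate 1 (-0.457, adjusted p = 0.059) or Th2 replicate 1 (-0.604, 0.062).

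Between Th17 and Th2 cells, *Tnfrsf25* (2.38), *Tnfrsf11b* (1.65), *Ltb* (1.57), *Tnfsf9* (1.18), *Tnfrsf26* (0.52), *Tnfrsf22* (0.50) and *Tnfrsf23* (0.50) were higher in Th17 cells, and *Tnfsf13b* (-1.78), *Tnfrsf4* (-1.39) and *Tnfrsf18* (-1.16) were lower. The *Tnfrsf22* difference lost its call without any one Th2 or Th17 library, at values of 0.452 to 0.54, with median scaling (0.349), under quantile normalization (0.314) and with no filter (adjusted p = 0.073). That of *Tnfrsf23* lost it without Th2 replicate 1 (0.469) or Th17 replicate 2 (0.471), and that of *Tnfrsf26* without Th2 replicate 2 (0.487), Th17 replicate 1 (0.467) or Th17 replicate 2 (0.571), with median scaling (0.345) and under quantile normalization (0.361).

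Between Th1 and Th17 cells, *Tnfsf10* (1.23) was higher in Th1 cells, and *Tnfsf14* (-2.38), *Tnfsf8* (-2.35) and *Tnfrsf13c* (-1.15) were lower. Beside the calls named above and those of *Tnfsf8*, *Tnfsf13b* and *Tnfrsf18* given in the report, smaller differences that lost their call under at least 1 alternative were those of *Tnfrsf13b*, *Tnfrsf13c*, *Tnfrsf1a* and *Tnfrsf1b* between Th17 and Th2 cells and of *Cd40lg*, *Tnfrsf1a*, *Tnfrsf23* and *Tnfsf11* between Th1 and Th17 cells.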

How the results depend on the processing

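The results were computed again under 18 alternatives, which gave 3348 values of single members. The call and its direction were as reported in 3199 of them, 82 lost a call, 43 gained one and 24 changed sign, and 2562 of the values of differences that were called as reported stayed called in the same direction. With the replicate block the counts of members higher than in naive cells were 17, 15 and 19 in Th1, Th2 and Th17 cells, and the block changed no other call of a member, nor of the signaling list against naive cells, than those given in the report. Median scaling and quantile normalization raised the count of members lower in Th17 than in Th2 cells from 5 to 8. Median scaling moved the median over all genes from -0.11 to 0.00 in Th2 against naive cells and from 0.18 to 0.02 in Th17 against Th2 cells, and the share of all calls that were higher in Th17 than in Th2 cells went from 72.6% to 53.3%. The members lower in all 3 subsets numbered 5 with only the 2 groups in each fit, and 5 to 8 with a library left out. The members higher in Th1 than in Th17 cells numbered 5 to 8 with a library left out.

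Called differences changed sign in 2 cases, both Th2 against naive under quantile normalization, *Tnfsf11* (-0.194) and *Tnfsf4* (-0.0383). The other changes of sign were in differences that were not called. Under quantile normalization they were *Tnfsf14* (-0.387) and *Tnfrsf13c* (-0.565) in Th1 against naive cells, *Tnfsf13b* (-0.527) and *Tnfrsf25* (-0.119) in Th17 against naive cells, *Tnfrsf23* (-0.0601) in Th1 against Th2 cells, *Tnfsf14* (-0.152), *Fasl* (-0.0709) and *Tnfrsf10b* (-0.0435) in Th17 against Th2 cells, and *Tnfrsf11b* (0.198) in Th1 against Th17 cells. Under median scaling they were *Tnfrsf25* (-0.0369), *Tnfrsf23* (-0.0462), *Tnfsf14* (-0.149) and *Tnfrsf11b* (0.0371) in the same comparisons. Over the fits without a library, the range was -0.0479 to 0.0636 for *Tnfrsf25* (sign changed without Th17 replicate 2), -0.0644 to 0.137 for *Tnfrsf23* (Th1 replicate 2), -0.111 to 0.152 for *Tnfsf14* (Th2 replicate 1 or Th17 replicate 2) and -0.176 to 0.13 for *Tnfrsf11b* (Th1 replicate 1 or Th17 replicate 1) in the same comparisons, -0.474 to 0.0519 for *Tnfrsf14* in Th1 against Th17 cells (Th1 replicate 1 or Th17 replicate 2), and -0.578 to 0.235 for *Tnfrsf13b* in Th2 against naive cells (naive replicate 2). The cause of these changes was not tested. With 2 libraries a group, a fit without a library assumes that the lone library varies like the other groups.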
